A study of Mus musculus with 2 samples.

Results

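The Hox genes are the homeobox transcription factors of 4 chromosomal clusters, Hoxa, Hoxb, Hoxc and Hoxd. Members were taken as every row of the deposited gene table whose symbol was Hoxa, Hoxb, Hoxc or Hoxd followed by a number, which gave 39 genes of 44166. The Hoxa cluster held 11 of them, Hoxb 10, Hoxc 9 and Hoxd 9. Whole skin of 3-day-old C57BL/6 mice had been sequenced in 2 libraries. One, labelled KO, came from RNF31fl/fl-K14-cre mice, which carry a floxed allele of Rnf31 and a Cre recombinase driven by the keratin 14 promoter. The other, labelled WT, came from wildtype mice. Rnf31 encodes HOIP, a ubiquitin ligase that builds linear chains in inflammatory and cell death signalling. The keratin 14 promoter is active in basal keratinocytes, from which the epidermis and the hair follicle epithelium derive, and not in dermal fibroblasts. How many animals were pooled, which body site was taken and whether wildtype mice carried the floxed allele or Cre was not stated in the labels.

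With 1 library per genotype there were no replicates, so no difference between the genotypes could be tested and none of the values below has a spread between animals. Depth was 20511407 reads in the KO-labelled library, of which 93.59% aligned, and 19619928 reads in the WT-labelled library, of which 92.56% aligned. Abundance is given as FPKM (fragments per kilobase of transcript, scaled for library depth), which is per length and lets genes be set beside each other. An FPKM of 1 over a transcript of 2 kb was worth an estimated 31.2 fragments in the KO-labelled library and 31 in the WT-labelled library. Rnf31 itself read 5.4 FPKM in the KO-labelled library and 3.95 in the WT-labelled library, a ratio of 1.36, which goes against the labels. The labels do not state which exons the allele loses, and the value covers the whole gene and all cells of the tissue. Each library is therefore called by its label throughout.

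Hox proteins bind DNA through the homeodomain, and they give cells their position along the head-to-tail and limb axes. Genes with the same number in different clusters descend from one ancestral gene and form a paralogue group. Within a cluster the genes lie in the order of their numbers, low numbers acting towards the head and high numbers towards the tail, the order known as collinearity. In skin, fibroblasts keep a Hox code of the body site they came from, and Hoxc13 is known as a gene of the hair follicle matrix and cortex, where it controls hair keratin genes. Pbx and Meis proteins bind DNA together with Hox proteins, and Polycomb and Trithorax complexes keep Hox clusters silent or active.

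The sequences below show the part of the homeobox that encodes the DNA-contacting helix, a feature of all Hox proteins. They are given for 4 of the 5 genes past a 2-fold limit in the KO-labelled library, all of them lower. Each runs 5′ to 3′ on the coding strand of GENCODE mouse release 21 transcripts, and capitals mark the codons of residues 48 to 53 of the 60-residue homeodomain.
Hoxc13: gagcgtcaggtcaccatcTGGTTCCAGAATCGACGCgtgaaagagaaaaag
Hoxb2: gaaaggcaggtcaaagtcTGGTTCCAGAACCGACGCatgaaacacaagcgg
Hoxb6: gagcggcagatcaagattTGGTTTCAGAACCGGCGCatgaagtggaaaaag
Hoxb8: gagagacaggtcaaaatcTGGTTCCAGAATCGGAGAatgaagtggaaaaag

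Over the whole homeobox, pairs of members in the same paralogue group shared a median of 80.6% of bases (42 pairs, range 67.2% to 93.9%). Pairs from different groups shared a median of 60.6% (699 pairs, range 46.1% to 88.9%). Hoxb6 and Hoxb8, both called lower, shared 80.6% of bases. Hoxc13 shared only 51.7% to 58.9% with the 4 called Hoxb genes. Over their transcripts, 30 of the 39 members had no run of 50 bases in common with another member, and 9 had some. The largest shares of such runs were 11.3% of those in Hoxd4 and 8.11% of those in Hoxd3. By this measure these are the members hardest to tell from another member. Overlap with genes other than members is not counted in it. Hoxd3 and Hoxd4 share exonic bases on the same strand, so these runs need not come from likeness in the homeobox.

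Hox transcripts were, as a group, less abundant in the KO-labelled library. The FPKM of all 39 members summed to 151 in the KO-labelled library, against 291 in the WT-labelled library. The ratio was 0.519, with a 95% counting interval of 0.496 to 0.543. Such intervals were computed from estimated fragments by the exact binomial method and cover counting error only, not the difference between animals. In bulk tissue, fewer cells of a type and less RNA per cell cannot be told apart. The members made up 0.0203% of all FPKM in the KO-labelled library and 0.0431% in the WT-labelled library.

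Of the 39 members, 27 reached an FPKM of 1 in one or both libraries, here called the floor, and 12 did not. A gene was called when (FPKM + 1) differed at least 2-fold between the libraries. This scale understates the change of low genes. Of the 27, 5 were called lower in the KO-labelled library, none was called higher and 22 lay inside the rule. The 5 are 18.5% of the 27, beside 4.09% of all 14541 genes at the same floor that were called lower. Called higher were 7.59% of all those genes. Without regard to size, 23 of the 27 members (85.2%) were lower in the KO-labelled library, beside 57.4% of all genes at the floor. The counting interval of the ratio lay wholly below 1 for 17 of the 27 members and wholly above 1 for 2. Over the 14309 annotated genes at the floor with fragments in both libraries, it lay below 1 for 37.9% and above 1 for 27.2%. The median log2 ratio was -0.44 over the 27 members and -0.31 over all 39. It was -0.08 over all genes at the floor and 0.00 over all genes in the table. Of the 44166 genes in the table, 20983 were at 0 in both libraries, which sets their log2 ratio to 0. Only 6 members were, so the 0.00 is a poor background for the 39.

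**Figure D1:**
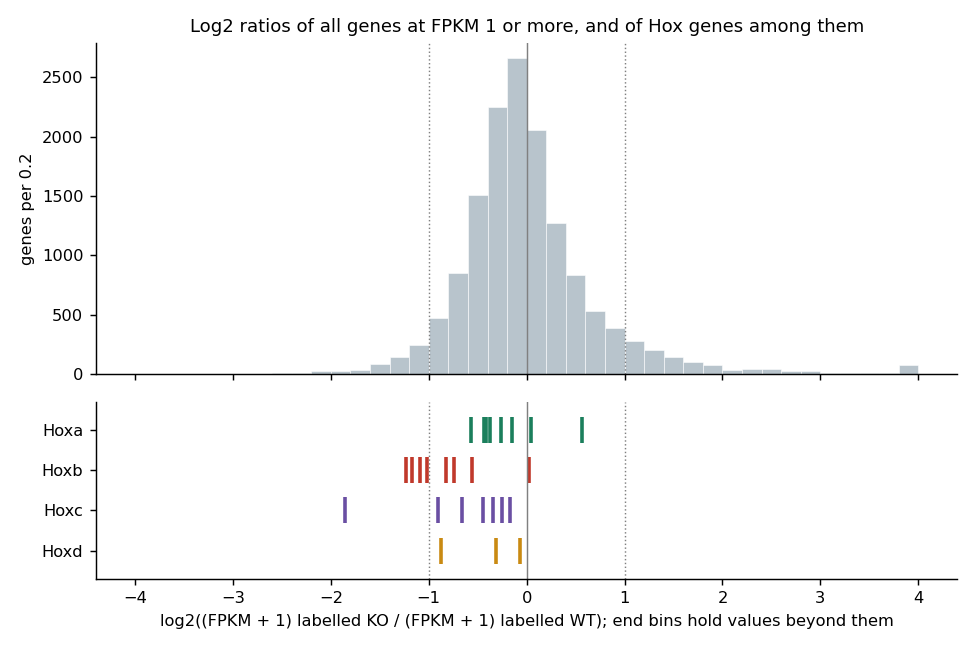
The upper panel counts the 14541 genes at FPKM 1 or more by their log2 ratio of FPKM + 1, labelled KO over labelled WT, in bins of 0.2 whose end bins also hold values beyond them, and the lower panel marks 26 of the Hox genes at that floor by cluster. Dotted lines stand at a 2-fold difference; 4 Hoxb genes and Hoxc13 lie at or beyond the lower line, no Hox gene reaches the upper one, and the middle of all genes is at -0.08.

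In the authors' deposited table, 28 members were given a test, 1 had a p-value under 0.05 and none had a q-value of 0.05 or less, beside 0.616% of all genes tested there. The 1 was Hoxc13, with p = 0.00305 and q = 0.237 in the authors' deposited table. That test compares the 2 libraries and not the genotypes.

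Hox genes were on the whole weakly expressed. The median FPKM of the 27 members was 3.12 in the KO-labelled library and 4.62 in the WT-labelled library, beside 9.01 labelled KO and 9.08 labelled WT for all genes at the floor. An FPKM of 10 or more was reached by 4 members in the KO-labelled library and by 10 in the WT-labelled library. Hoxc13 led both libraries, followed by Hoxa7, Hoxd8 and, in the KO-labelled library, Hoxb7. Read by number, the middle of the clusters was the most broadly expressed. All 15 members of paralogue groups 4 to 8 reached the floor, against 5 of 8 in groups 1 to 3 and 7 of 16 in groups 9 to 13.

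**Figure D2:**
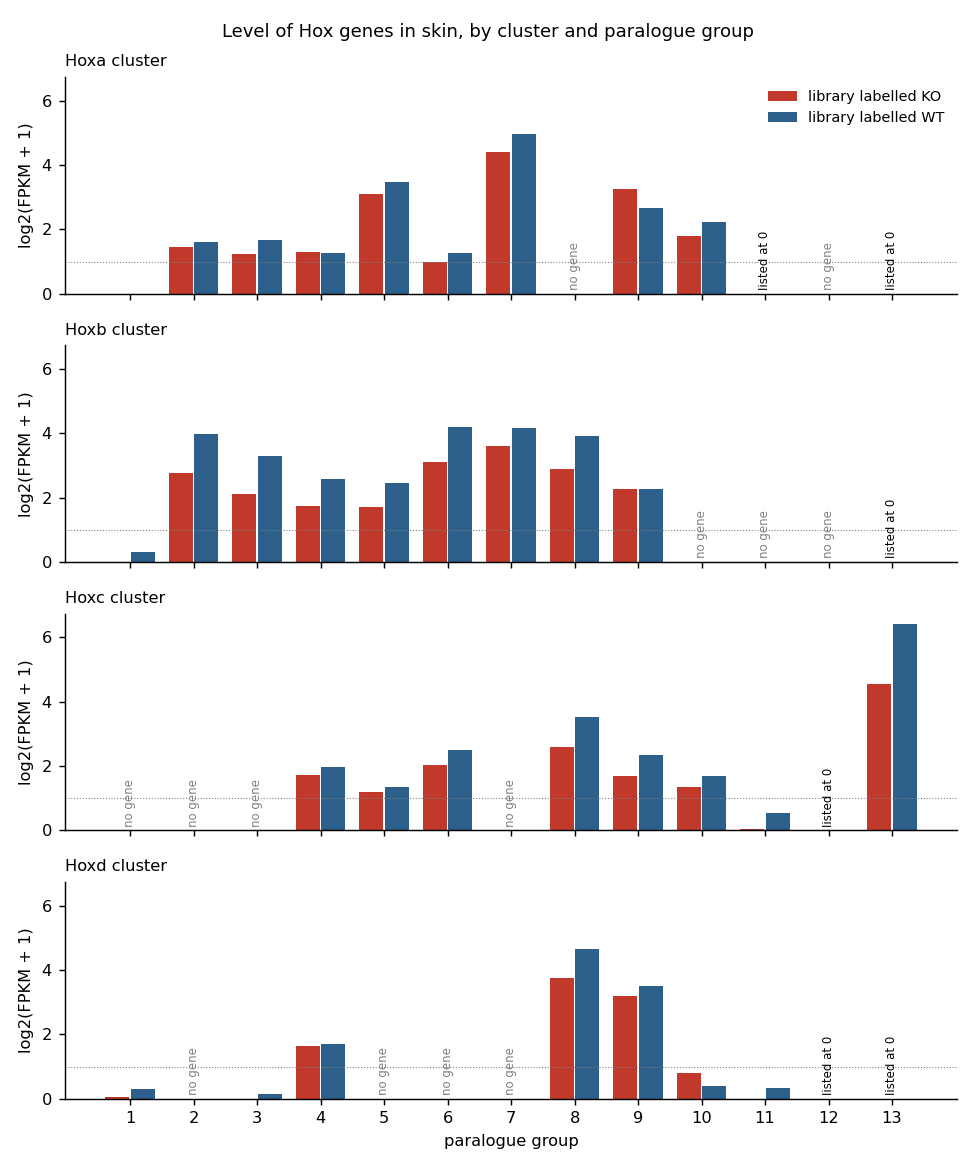
Bars give log2(FPKM + 1) of 38 Hox genes by paralogue group, 1 panel per cluster, with the KO-labelled library to the left of the WT-labelled library and a dotted line at an FPKM of 1. Hoxc13 stands highest in both libraries (22.4 FPKM labelled KO and 84 labelled WT), most members of groups 4 to 8 are lower in the KO-labelled library, and most members of groups 11 to 13 are listed at 0.

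The Hoxc cluster, on chromosome 15 (GRCm38, chr15:102921103-103036852), showed the lowest summed ratio of the 4. Its 9 members summed to 37.9 FPKM in the KO-labelled library and 110 in the WT-labelled library, a ratio of 0.344 (0.323 to 0.366). Most of that sum came from Hoxc13. Without Hoxc13, a choice made after its values were seen, the sums were 15.5 FPKM in the KO-labelled library and 26.2 in the WT-labelled library, and the ratio was 0.591 (0.526 to 0.664).

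Hoxc13 (ENSMUSG00000001655, chr15:102921103-102928814, plus strand) is the last gene at the high-numbered end of its cluster. It had 22.4 FPKM in the KO-labelled library, from an estimated 861 fragments. In the WT-labelled library it had 84 FPKM, from an estimated 3201 fragments. The ratio was 0.267 (0.247 to 0.288), the lowest of the 27 members, and the log2 ratio was -1.86. Its rank by FPKM among all genes was 4022 in the KO-labelled library and 1123 in the WT-labelled library. It alone held 14.9% of the summed Hox FPKM in the KO-labelled library and 28.9% in the WT-labelled library. No exonic base of Hoxc13 is shared with another annotated gene. The other 3 members of its paralogue group, Hoxa13, Hoxb13 and Hoxd13, which pattern the limb tips, the genital tract and the tail end of the body, were listed at 0 in both libraries.

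Markers of the hair follicle, the site where Hoxc13 is known to act, moved with it. Of the 21 hair follicle markers in the table, 17 were called lower in the KO-labelled library and none was called higher. Over all genes at the floor, 4.09% were called lower and 7.59% higher. The median log2 ratio of the hair follicle markers was -1.34. Their FPKM summed to 8177.7 in the KO-labelled library and 11966.7 in the WT-labelled library, and none was at 0. The 3 lowest log2 ratios among them were those of Krt35, Krt83 and Lef1. The hair cortex keratin Krt35 had 113 FPKM in the KO-labelled library and 616 in the WT-labelled library. The hair keratin Krt83 had 146 FPKM in the KO-labelled library and 656 in the WT-labelled library. Lef1, a Wnt pathway factor of the hair matrix, had 9.49 FPKM in the KO-labelled library and 45.8 in the WT-labelled library. The inner root sheath keratins were spread. Krt28, Krt72 and Krt73 were called lower, with log2 ratios of -1.67, -1.26 and -1.23. Krt27, Krt25 and Krt71 lay inside the rule, at -0.41, -0.06 and -0.02. Foxn1, the remaining marker inside it and not a keratin, was at -0.44. The part that these markers have in the level of Hoxc13 was not tested.

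The other 6 Hoxc genes at the floor, which act along the trunk and in motor neurons, were all lower in the KO-labelled library, none past the rule. Hoxc8, a brachial and thoracic gene, had 5.04 FPKM in the KO-labelled library and 10.4 in the WT-labelled library. Its ratio of 0.485 (0.396 to 0.594) was below 0.5, yet FPKM + 1 kept it inside the rule at a log2 ratio of -0.91. Hoxc9 had 2.2 FPKM in the KO-labelled library and 4.04 in the WT-labelled library, a ratio of 0.544 (0.406 to 0.712). Hoxc9 is known for setting thoracic motor neuron identity. Hoxc6 had 3.12 FPKM in the KO-labelled library and 4.62 in the WT-labelled library, a ratio of 0.675 (0.499 to 0.911). Those 3 intervals lay below 1, whereas the next 3 reached past it. Hoxc10, a lumbar gene, had 1.56 FPKM in the KO-labelled library and 2.25 in the WT-labelled library, a ratio of 0.696 (0.475 to 1.04). Hoxc5 had 1.27 FPKM in the KO-labelled library and 1.56 in the WT-labelled library, a ratio of 0.815 (0.57 to 1.18). Hoxc4 had 2.27 FPKM in the KO-labelled library and 2.89 in the WT-labelled library, a ratio of 0.786 (0.562 to 1.08). Hoxc5 and Hoxc10 share 166 exonic bases on the same strand, so their reads may have been split between them. Hoxc12 was listed at 0 in both libraries, and Hoxc11 rested on an estimated 1 fragment in the KO-labelled library and 14 in the WT-labelled library, a ratio of 0.0736 (0.00168 to 0.466).

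The Hoxb cluster, on chromosome 11 (chr11:96194316-96368256), held the other 4 called genes. Its 10 members summed to 42.9 FPKM in the KO-labelled library and 85.8 in the WT-labelled library, a ratio of 0.501 (0.463 to 0.541). Of the 8 at the floor, 7 were lower in the KO-labelled library, and the median log2 ratio was -0.92. Unlike in Hoxc, no single gene carried the difference: Hoxb2, Hoxb3, Hoxb6 and Hoxb8 had ratios between 0.38 and 0.456.

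Hoxb2, a hindbrain gene needed for facial motor neurons, had 5.8 FPKM in the KO-labelled library and 14.9 in the WT-labelled library. Its ratio was 0.389 (0.318 to 0.471) and its log2 ratio -1.23. Hoxb3, its neighbour, had 3.35 FPKM in the KO-labelled library and 8.81 in the WT-labelled library. That ratio was 0.38 (0.299 to 0.482), with a log2 ratio of -1.17. Both genes overlap the antisense RNA Hoxb3os, Hoxb2 by 953 exonic bases and Hoxb3 by 2250. Hoxb3os had 3.94 FPKM in the KO-labelled library and 3.6 in the WT-labelled library, so it did not share their direction. The library kit keeps strand, but no label states whether strand was used in counting, and without it reads from a gene and its antisense partner cannot then be told apart.

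Hoxb6, a gene of the thoracic region and lateral plate, had 7.64 FPKM in the KO-labelled library and 17.4 in the WT-labelled library. The ratio came to 0.438 (0.359 to 0.528) and the log2 ratio to -1.09. Hoxb8, whose loss in mice causes excessive grooming, had 6.46 FPKM in the KO-labelled library and 14.2 in the WT-labelled library. Its ratio of 0.456 (0.363 to 0.571) and log2 ratio of -1.02 put it nearest the limit among the called genes, and with median of ratios scaling it was inside the rule at -0.94. Neither gene shares exonic bases with another annotated gene. Just inside the limit in this cluster were Hoxb4, at -0.82, and Hoxb5, at -0.74.

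Hoxb4, known for expanding blood stem cells, had 2.38 FPKM in the KO-labelled library and 4.96 in the WT-labelled library, a ratio of 0.479 (0.371 to 0.614). Hoxb5 had 2.27 FPKM in the KO-labelled library and 4.47 in the WT-labelled library, a ratio of 0.508 (0.372 to 0.686). Hoxb7 had 11.2 FPKM in the KO-labelled library and 17 in the WT-labelled library, a ratio of 0.659 (0.554 to 0.782). The genes from Hoxb2 to Hoxb8 were thus all lower, with intervals below 1. Hoxb9, a thoracic gene at the far side of Hoxb8, had 3.87 FPKM in the KO-labelled library and 3.79 in the WT-labelled library, a ratio of 1.02 (0.799 to 1.31). The log2 ratios of Hoxb9 and Hoxb8 differed by 1.05, while those of the adjacent pairs from Hoxb8 to Hoxb2 differed by 0.05 to 0.53. Hoxb1 was at 0 in the KO-labelled library and had 0.236 FPKM in the WT-labelled library. Hoxb13, a prostate and tail-end gene, was listed at 0 in both.

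Hoxb8 is the one called gene with a promoter in the RefSeq table used here, and its sequence is shown for that reason. The 250 bases before its start (GRCm38.p6, chr11:96281655-96281904, plus strand) hold 44.4% G and C, beside a median of 58.6% over the members' promoters and 52.4% over all promoters. Capitals mark every match, on either strand, to TATAAA, the core of the TATA box, or to TGATNNAT, the joint motif of Hox and Pbx proteins.
Hoxb8 promoter: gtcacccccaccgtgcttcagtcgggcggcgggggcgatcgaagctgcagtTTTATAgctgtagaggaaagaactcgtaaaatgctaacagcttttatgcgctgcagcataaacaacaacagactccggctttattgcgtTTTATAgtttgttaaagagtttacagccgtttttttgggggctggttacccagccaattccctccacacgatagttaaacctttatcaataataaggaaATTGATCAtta

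Promoters were found for 22 members, in 24 entries, and not for the other 17. TATAAA was in 16.7% of the 24 entries and in 12.4% of all 32851 entries of the same length. TGATNNAT was in 16.7% of the members' entries and in 7.68% of all. CCAAT, the letters bound by NF-Y, was in 58.3% of the members' entries and 33.8% of all, and TAATTA, a homeodomain site, in 8.33% and 4.84%. The counts behind the members' shares are small: 4 entries each for TATAAA and TGATNNAT, 14 for CCAAT, and 2 for TAATTA, both of Hoxd11. These are matches of letters and not sites of binding. The members' promoters were rich in CpG, with a median observed over expected ratio of 0.721, beside 0.373 over all entries.

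The Hoxa cluster, on chromosome 6 (chr6:52155590-52260880), had the summed ratio nearest to 1 of the 4. Its 11 members summed to 46.5 FPKM in the KO-labelled library and 57.3 in the WT-labelled library, a ratio of 0.812 (0.73 to 0.902). Its share of the Hox sum was 30.8% in the KO-labelled library and 19.7% in the WT-labelled library. Of its 9 genes at the floor, 6 were lower and 3 higher in the KO-labelled library, with a median log2 ratio of -0.26, and none passed the rule.

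Hoxa9, known for its part in blood progenitors and leukaemia, had 8.47 FPKM in the KO-labelled library and 5.36 in the WT-labelled library, a ratio of 1.58 (1.15 to 2.14). Hoxa9 shares no exonic bases with another annotated gene. Its neighbours on both sides were lower in the KO-labelled library.

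Hoxa7, the second most abundant member in both libraries, had 20.2 FPKM in the KO-labelled library and 30.4 in the WT-labelled library, a ratio of 0.665 (0.553 to 0.796). Hoxa10, a gene of the lumbar vertebrae and the uterus, had 2.43 FPKM in the KO-labelled library and 3.67 in the WT-labelled library, a ratio of 0.663 (0.455 to 0.932). Hoxa5, needed for lung development, had 7.54 FPKM in the KO-labelled library and 10 in the WT-labelled library, a ratio of 0.752 (0.63 to 0.901). These 3 and Hoxa3 had intervals below 1. Hoxa7 shares 586 exonic bases with the antisense RNA Hoxaas3, and Hoxa3 shares exonic bases with genes on both strands, so their values are less certain. Hoxa2 and Hoxa4 also share exonic bases with other genes. Without the members that share bases, the summed Hoxa ratio was 0.95. Hoxa3, a gene of the thymus and parathyroid, had 1.36 FPKM in the KO-labelled library and 2.15 in the WT-labelled library, a ratio of 0.633 (0.444 to 0.9). Hoxa2, which patterns the second pharyngeal arch, had 1.75 FPKM in the KO-labelled library and 2.05 in the WT-labelled library, a ratio of 0.857 (0.579 to 1.3). Hoxa6 had 0.998 FPKM in the KO-labelled library and 1.4 in the WT-labelled library, a ratio of 0.713 (0.339 to 1.54). The intervals of Hoxa2, Hoxa6 and Hoxa4 spanned 1, so a difference was not detectable at this depth. Hoxa4 had 1.48 FPKM in the KO-labelled library and 1.41 in the WT-labelled library, a ratio of 1.05 (0.643 to 1.72). Hoxa11 and Hoxa13, limb genes, were listed at 0 in both libraries.

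The Hoxd cluster, on chromosome 2 (chr2:74668310-74765142), had 3 members at the floor, all lower in the KO-labelled library and all inside the rule. Its 9 members summed to 23.6 FPKM in the KO-labelled library and 37.6 in the WT-labelled library, a ratio of 0.628 (0.541 to 0.728). Hoxd8 had 12.6 FPKM in the KO-labelled library and 24.1 in the WT-labelled library, a ratio of 0.523 (0.409 to 0.659). With a log2 ratio of -0.88 it was, after Hoxc8, the member nearest to the limit from inside. Hoxd9, which acts in the forelimb and the lumbosacral spine, had 8.17 FPKM in the KO-labelled library and 10.4 in the WT-labelled library, a ratio of 0.786 (0.669 to 0.925). Hoxd4 had 2.1 FPKM in the KO-labelled library and 2.24 in the WT-labelled library, a ratio of 0.934 (0.62 to 1.41). Hoxd4 shares exonic bases with genes on its own strand, Hoxd3 among them, so its value and that of Hoxd3 are uncertain. Added up gene by gene these overlaps came to 1542 bases, and a base shared with several genes counts for each. The other 6 members were below the floor. Hoxd12 and Hoxd13 were listed at 0 in both libraries, and Hoxd11 at 0 in the KO-labelled library against 0.249 FPKM in the WT-labelled library. Hoxd10, a gene of the hindlimb, had 0.727 FPKM in the KO-labelled library and 0.314 in the WT-labelled library, a ratio of 2.32 (1.02 to 5.74). Hoxd1 and Hoxd3 had at most 0.0413 FPKM in the KO-labelled library and at most 0.237 in the WT-labelled library.

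**Figure D3:**
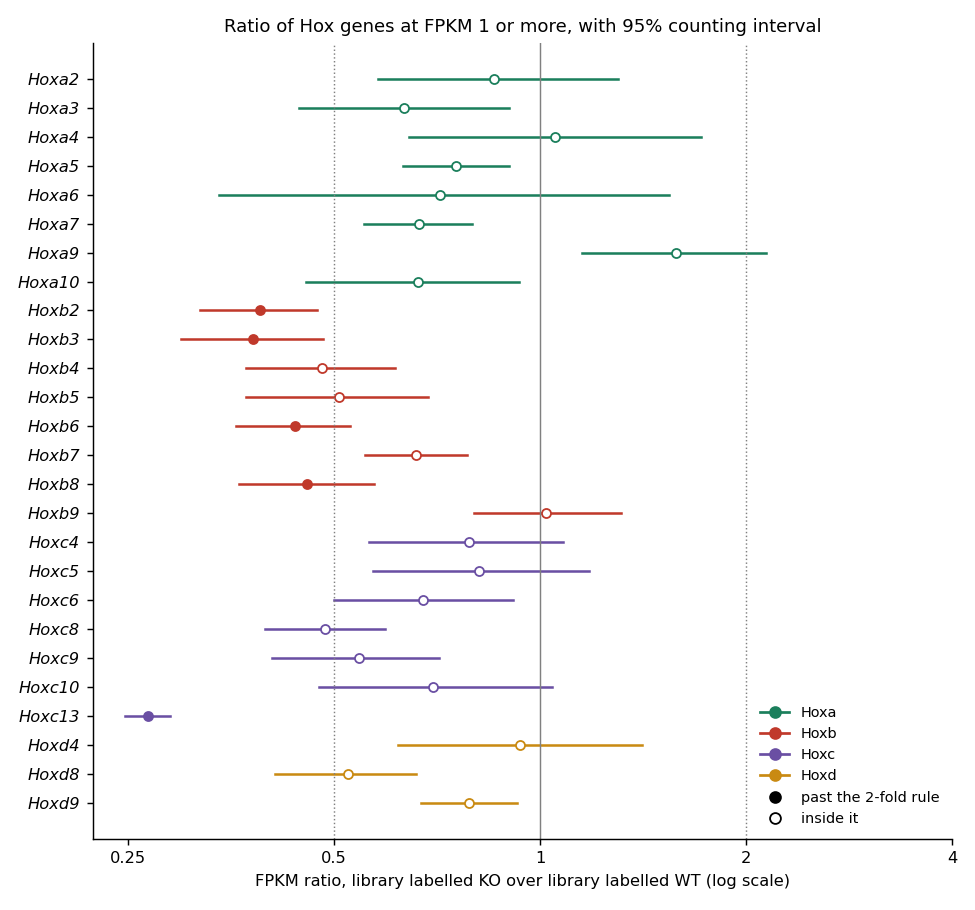
Each row is 1 of 26 Hox genes at FPKM 1 or more, with the point at its FPKM ratio, labelled KO over labelled WT, on a log axis and the line spanning the 95% counting interval. Filled points passed the 2-fold rule on FPKM + 1, dotted lines mark ratios of 0.5 and 2, and Hoxc13 (0.267) lies left of every other interval while Hoxa9 (1.58) lies right of 1.

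By paralogue number, the ratio of the sums was below 1 in each block of the axis. Groups 1 to 3 summed to 14.6 FPKM in the KO-labelled library and 29.3 in the WT-labelled library, a ratio of 0.497 (0.44 to 0.56). Most of both sums came from Hoxb2 (5.8 FPKM labelled KO, 14.9 labelled WT) and Hoxb3 (3.35 labelled KO, 8.81 labelled WT). The ratio therefore rested on these genes, which both overlap Hoxb3os, and need not hold for the rest of the block. Groups 4 to 8 summed to 86.5 FPKM in the KO-labelled library and 147 in the WT-labelled library, a ratio of 0.588 (0.549 to 0.631). In these trunk groups 14 of 15 members were lower by any amount, beside 57.4% of all genes at the floor. Groups 9 to 13 summed to 49.9 FPKM in the KO-labelled library and 115 in the WT-labelled library, a ratio of 0.436 (0.409 to 0.463). That last value rested on Hoxc13: without it the sums were 27.5 FPKM in the KO-labelled library and 30.5 in the WT-labelled library, and the ratio was 0.9 (0.808 to 1.0).

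Among single groups, paralogues did not always share a direction. The 3 members of group 8 lay near each other, with Hoxb8, Hoxc8 and Hoxd8 at ratios of 0.456, 0.485 and 0.523 and a summed ratio of 0.495 (0.429 to 0.57). The 2 members of group 7, Hoxa7 and Hoxb7, had ratios of 0.665 and 0.659. Group 9 was split, with Hoxa9 at 1.58, Hoxb9 at 1.02, Hoxd9 at 0.786 and Hoxc9 at 0.544, and a summed ratio of 0.963 (0.853 to 1.09).

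Along the chromosome, other RNAs inside the clusters did not follow the Hox genes as a body. Of 18 listed RNAs in or near the clusters 11 were in the table and 7 at the floor, with 1 called higher, 1 called lower and a median log2 ratio of 0.10. The 1 called higher, Halr1, lies outside the clusters. Gm28793, Gm15050, Gm11539 and Gm53, which lie inside them, were not in that list, so its median is not that of the RNAs inside. Hoxb5os, antisense to Hoxb5, had 1.07 FPKM in the KO-labelled library and 5.11 in the WT-labelled library, a log2 ratio of -1.56. It was the one RNA inside the clusters called lower, and it overlaps Hoxb5 by 100 exonic bases. Hoxd3os1 had 8.67 FPKM in the KO-labelled library and 14.1 in the WT-labelled library, a log2 ratio of -0.65. Called higher were Gm28793, in the Hoxd cluster, with 1.21 FPKM in the KO-labelled library and 0 listed in the WT-labelled library, and Halr1, an RNA near the Hoxa cluster, with 2.64 FPKM in the KO-labelled library and 0.7 in the WT-labelled library. Hoxaas2, which overlaps Hoxa3, had 1.35 FPKM in the KO-labelled library and 0.613 in the WT-labelled library. The remaining 6 at the floor inside the clusters, Hotairm1, Gm15050, Hoxaas3, Gm11539, Gm53 and Hoxb3os, had log2 ratios between -0.38 and 0.21. Hotair and Hottip, RNAs of the Hoxc and Hoxa clusters known for guiding chromatin regulators, were listed at 0 in both libraries.

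**Figure D4:**
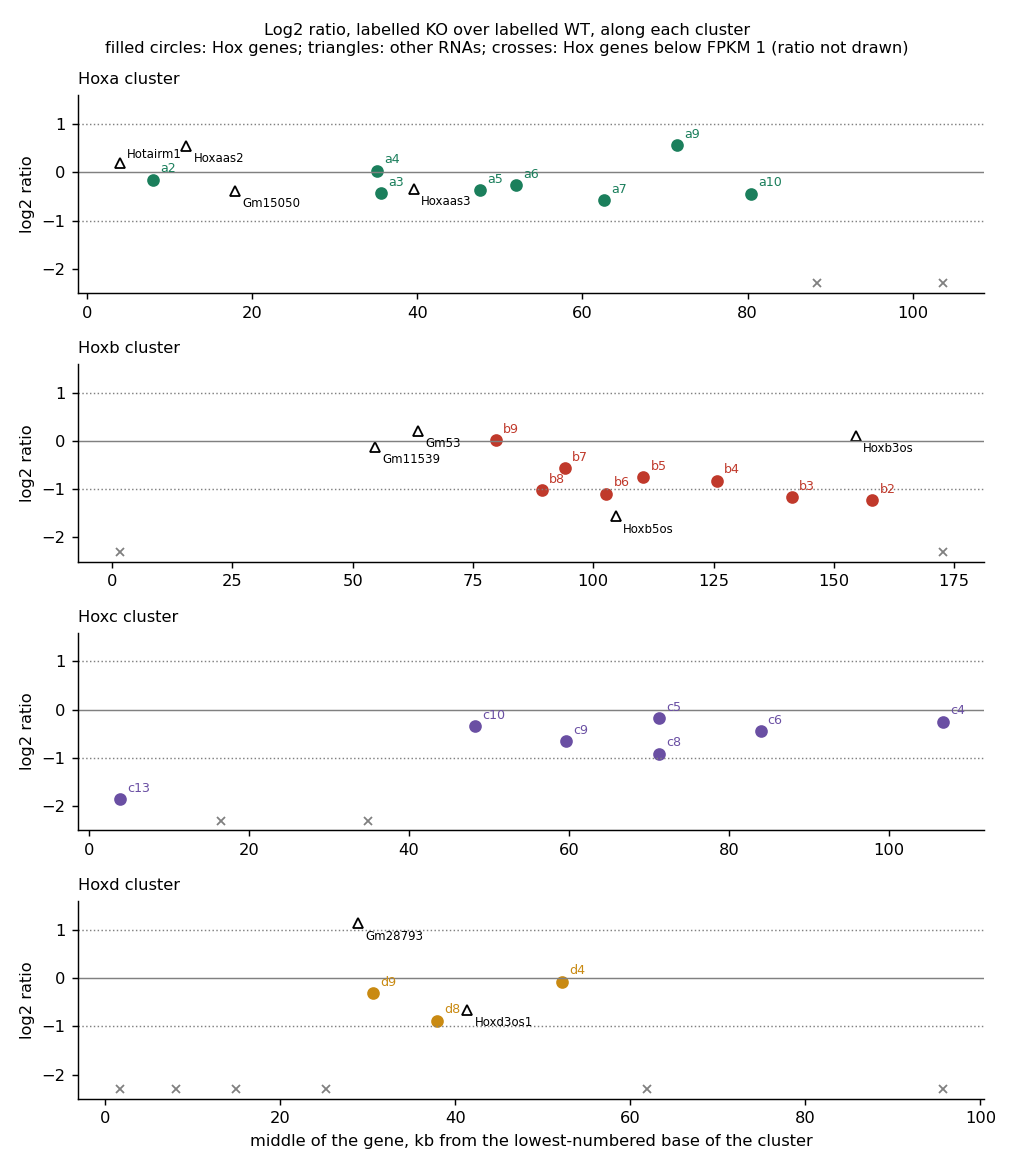
The log2 ratio of FPKM + 1, labelled KO over labelled WT, is drawn for 38 Hox genes and other RNAs at the distance in kb of its middle from the lowest-numbered base of its cluster, 1 panel per cluster, with filled circles for Hox genes, triangles for other RNAs at FPKM 1 or more, and crosses for Hox genes below that floor. Low values run from b2 to b8 in Hoxb and stop at b9 (0.02), c13 (-1.86) stands apart in Hoxc, and a9 (0.57) stands above its neighbours in Hoxa.

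Of the nearest 3 protein-coding genes on each side of each cluster, those at the floor lay inside the 2-fold rule. Their log2 ratios reached 0.73 at Atf7 and 0.91 at Nfe2l2 on the high side. On the low side they reached -0.76 at Cbx3 and -0.95 at Cbx5, a heterochromatin protein gene at 154692 bases from the Hoxc cluster. Lnpk and Mtx2, the nearest of these on each side of Hoxd, had log2 ratios of 0.02 and -0.28.

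The TALE class genes, among them the Pbx and Meis partners of Hox proteins, did not pass the rule in either direction. All 11 TALE class genes (Pbx, Meis, Pknox and Tgif) were at the floor, none was called, and their median log2 ratio was -0.08, the same as over all genes. The most different was Pknox1, a cofactor also called Prep1, with 4.28 FPKM in the KO-labelled library and 8.85 in the WT-labelled library. Meis1 had 2.07 FPKM in the KO-labelled library and 3.55 in the WT-labelled library. Pbx3 was on the other side, with 4.2 FPKM in the KO-labelled library and 2.68 in the WT-labelled library. Pbx2 had a log2 ratio of -0.44.

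Of 44 Polycomb and Trithorax genes, all at the floor, none was called. By any amount, 36 of the 44 were lower in the KO-labelled library, beside 57.4% of all genes at the floor. The median log2 ratio was -0.23, beside -0.08 over all genes. Cbx2, a Polycomb subunit that reads methylated histone H3, had 6.5 FPKM in the KO-labelled library and 13.4 in the WT-labelled library. Ezh2, the Polycomb histone methyltransferase, had 14.8 FPKM in the KO-labelled library and 28.1 in the WT-labelled library. Men1, which acts with the Trithorax methyltransferases, had 11.3 FPKM in the KO-labelled library and 22.2 in the WT-labelled library. Cbx6 had a log2 ratio of -0.87. These 4 are the largest differences of the list, and the Trithorax methyltransferases Kmt2a, Kmt2b, Kmt2c and Kmt2d lay near no difference, at log2 ratios of -0.01, 0.19, -0.06 and -0.08. Highest was the Polycomb cofactor Jarid2, at 0.30. The ParaHox, Evx and Mnx genes, the nearest relatives of the Hox clusters, were all below the floor, and of the 9 only Gsx1 was above 0, with 0.046 FPKM in the KO-labelled library.

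Cell type markers moved too, and which cells the Hox transcripts came from cannot be read from whole skin. Fibroblast markers, the dermal cells known to hold a Hox code, had none of 12 called in either direction and a median log2 ratio of -0.28. Their FPKM summed to 2713.5 in the KO-labelled library and 3504.5 in the WT-labelled library, a ratio of 0.774. Beside it, the Hox sum had a ratio of 0.519, or 0.621 without Hoxc13, a choice made after its values were seen. All 5 melanocyte markers were called lower (median log2 ratio -1.54), with sums of 205 FPKM in the KO-labelled library and 647 in the WT-labelled library. Of 7 adipocyte markers 2 were called lower, with a median of -0.69 and sums of 1008.9 FPKM in the KO-labelled library and 1590.0 in the WT-labelled library. Basal keratinocyte markers went the other way. Of these 7, 5 were called higher and 1 lower, with a median of 1.55. Their sums were 15953.7 FPKM in the KO-labelled library and 2192.2 in the WT-labelled library. Most of the KO-labelled sum was Krt14, with 12590.1 FPKM labelled KO and 816 labelled WT. Of 6 suprabasal keratinocyte markers 2 were called higher and 1 lower, with a median of 0.29. By any amount, 3 were higher and 3 lower. They summed to 9462.8 FPKM in the KO-labelled library and 2663.0 in the WT-labelled library. Krtdap alone had 7012.6 FPKM labelled KO and 1121.1 labelled WT. Skeletal muscle markers had 2 of 8 called higher (median 0.32; sums 9191.4 FPKM labelled KO and 7898.8 labelled WT). Endothelial markers had none of 5 called (median 0.16; sums 41.3 FPKM labelled KO and 40.2 labelled WT). Immune markers had 4 of 5 at the floor and 2 called higher (median 1.01; sums 103 FPKM labelled KO and 52.6 labelled WT). None of the defining markers in any of these lists was at 0 in either library. The part of these markers in the Hox values was not tested.

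**Figure D5:**
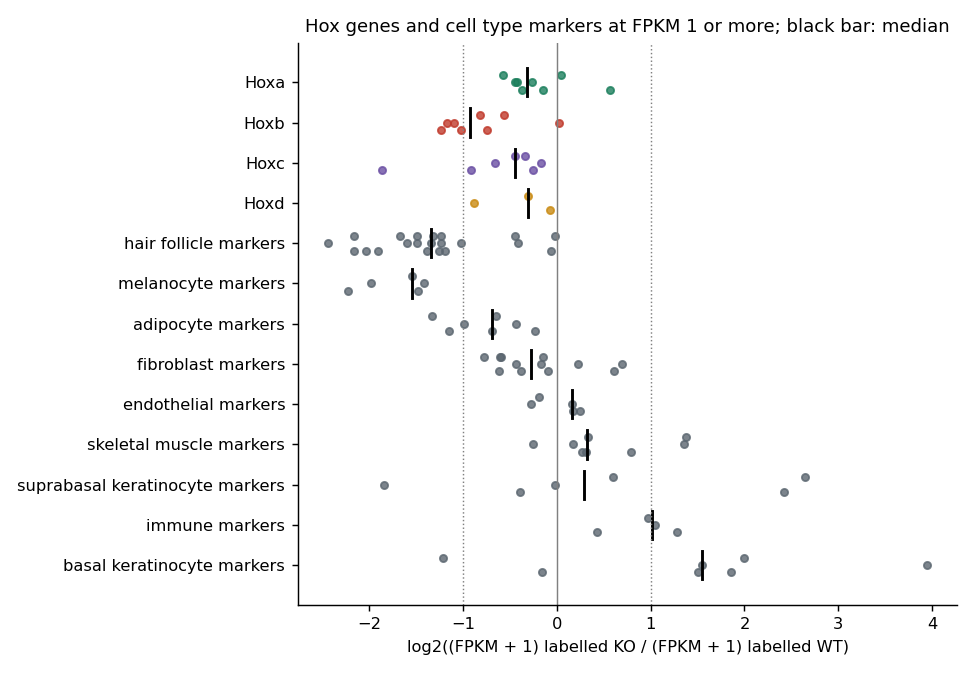
Each point is the log2 ratio of FPKM + 1, labelled KO over labelled WT, of 1 gene at FPKM 1 or more, in rows for the 4 Hox clusters and 9 cell type marker lists, with a black bar at the median of the points drawn and dotted lines at a 2-fold difference. The Hoxb median (-0.92) lies between those of the hair follicle markers (-1.34) and the fibroblast markers (-0.28), and the basal keratinocyte markers (1.55) lie on the opposite side.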

How the data were processed

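Per the labels' protocols, skin was ground in TRIzol and its RNA sequenced from a strand-keeping kit. The submitters' processing notes name cutadapt 1.9.1, HISAT2 2.0.4, Cufflinks 2.2.1 and the build GRCm38; the annotation release, strand setting and handling of shared reads are not stated there or in the labels. The deposited gene table gives 1 FPKM per gene and library, and a p-value with its q-value from the authors' comparison, per the file headers. A deposited sheet gives reads per library as counts and the fraction aligned, which is printed as a percent.

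Members and lists were chosen with earlier results of these data known. Ratios are KO over WT; log2 ratios use FPKM with a pseudocount of 1, a floor of FPKM 1 in one or both libraries and a 2-fold rule. With 1 library per genotype no test was run. FPKM steps of single-transcript genes of at least 3000 bases gave the worth of 1 fragment, with 73.1% of 479 low values labelled KO and 75% of 468 labelled WT within 0.25 of a whole step (50% by chance). Estimated fragments, from the shortest transcript, gave exact binomial 95% intervals. The procedure was tested on simulated data in which each gene's length was known, so the use of the shortest transcript was not tested. Positions, exons and homeobox sequences came from GENCODE mouse release 21, which held all 39 member identifiers, and promoters from RefSeq (GRCm38.p6). Single values of 1 member and some sequences are not reported here. Every other member and each gene inside the clusters at the floor is named; of other lists, genes past the rule or up to 4 with the largest change were eligible. Alternatives were other pseudocounts, floors, folds and scalings, and leaving out members that share bases. Python 3.11.15 with numpy 2.4.6, pandas 2.3.3, scipy 1.17.1 and matplotlib 3.10.9 was used.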

Additional observations from a re-analysis of the deposited data

How the results depend on the processing

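No paired analysis was possible because each genotype had 1 library, and for the same reason no replicate could be left out. Under the 8 other settings no result changed direction, apart from the ratios near 1 given here. Of 190 single gene values, 189 stayed within their counting intervals. Floors, folds and leaving out members cannot change a single gene value, so many of the 190 were fixed in advance. Only the other pseudocounts and scalings could move a value. Hoxc13 moved to -1.77 with median of ratios scaling. The number of Hox genes called higher was 1 with a pseudocount of 0.1, with 0.5 and at 1.5-fold. The number called lower was 10 at 1.5-fold, 7 with a pseudocount of 0.1 (Hoxb4 and Hoxc8 added), 4 with median of ratios scaling (Hoxb8 lost, at -0.94) and 3 without members that share bases with another gene, since Hoxb2 and Hoxb3 do. With FPKM of at least 5 the summed ratios were 0.481 for all Hox genes, 0.291 for Hoxc, 0.385 for groups 1 to 3 and 0.392 for groups 9 to 13. With median of ratios scaling they were 0.555 for all, 0.368 for Hoxc and 0.466 for groups 9 to 13. When scaling ignored the 50 most abundant genes they were 0.474 for all, 0.458 for Hoxb, 0.314 for Hoxc, 0.538 for groups 4 to 8 and 0.398 for groups 9 to 13. That scaling moved the median of all genes by -0.12, to -0.20; Hoxa4 (-0.03) and Hoxb9 (-0.08) were then below 0, Hoxc8 and Hoxd8 joined the called genes, and 54.4% of all calls were higher, against 65% as reported. Without members that share bases the ratios were 0.488 for all, 0.95 for Hoxa, 0.548 for Hoxb and 0.0875 for groups 1 to 3, where Hoxb1 and Hoxd1 alone remain. Without Hoxc13 they were 0.621 for all, 0.591 for Hoxc and 0.9 for groups 9 to 13. Over all genes, 595 were called lower as reported, 1085 with a pseudocount of 0.1 and 2012 at 1.5-fold. At 1.5-fold 2075 were called higher, against 1103 as reported. Members below an FPKM of 1 rest on at most an estimated 21 fragments, and no difference between animals can be read from any value.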
